A study of Rattus norvegicus with 45 samples.

Results

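The genes described here are 37 chaperones, folding factors and stress transcription factors of the heat shock response and the unfolded protein response. They were listed by gene symbol and were measured in rat brain by 1 probe set per gene, the one with the highest mean over all 45 arrays. Of the 37 listed genes, 35 had a probe set that names 1 gene, out of 10256 such genes tested, and all 35 passed the filter on low values. They were 12 cytosolic chaperones and co-chaperones, 14 chaperones and folding factors of the endoplasmic reticulum, 3 mitochondrial chaperones, 2 heat shock factors and 4 transcription factors of the unfolded protein response. Hspa8 and Hsp90aa1, the main constitutive Hsp70 and the inducible Hsp90 of the cytosol, lie only on probe sets that name several genes and are given no value.

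The arrays came from 15 male Sprague-Dawley rats with osmotic minipumps implanted at 9 to 11 weeks of age. The pumps gave 0.25 mg/kg/d haloperidol (5 rats), 5 mg/kg/d risperidone (5 rats) or the vehicle of dilute acetic acid alone (5 rats) for 21 days. Haloperidol is a typical antipsychotic that acts on dopamine receptors, and risperidone is an atypical one that also acts on serotonin receptors. Each rat gave frontal cortex, hippocampus and striatum for 1 Affymetrix rat array per region, which makes 9 groups of 5, and both drugs were compared with the same vehicle rats. The tissue label calls the samples mouse brain, whereas the organism, strain and array are those of the rat. The comparisons ask whether exposure to either drug alters these genes, and whether it does so by region and by cell compartment.

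Cytosolic chaperones such as the Hsp70 and Hsp90 proteins fold new and damaged proteins, and their genes are induced by the heat shock factor Hsf1, which binds repeated heat shock elements in their promoters. Proteins that enter the endoplasmic reticulum are folded by a separate set, led by Hspa5 (BiP), Hsp90b1 (GRP94), the lectins calnexin and calreticulin and the protein disulfide isomerases. When unfolded proteins build up there, Atf6, Xbp1 and Atf4 raise the genes of this second set, in part through the endoplasmic reticulum stress element. In neurons both systems keep synaptic and secreted proteins in a folded state.

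The promoters of the list divide by compartment in these motifs. RefSeq promoters on the GRCr8 assembly, from 250 bases before to 50 bases after the start of transcription, were matched by symbol for 29 of the 37 listed genes and searched on both strands. The endoplasmic reticulum stress element, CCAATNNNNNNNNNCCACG, stood in 6 of 11 endoplasmic reticulum promoters (Calr, Canx, Creld2, Dnajc3, Hsp90b1 and Hspa5) and in that of Xbp1, in 0 of 11 cytosolic promoters and in 0.0657% of all 33469 promoters. A pair of heat shock units, GAANNTTC or TTCNNGAA, stood in 7 of 11 cytosolic promoters and 3 of 3 mitochondrial ones, in 0 of 11 endoplasmic reticulum promoters and in 15.9% of all promoters. A run of 3 units, GAANNTTCNNGAA or TTCNNGAANNTTC, which contains the pair, stood in Dnaja1, Hspa8, Hspd1, Hspe1 and Hsph1, and in 0.798% of all promoters. The windows of Hspd1 and Hspe1 overlap on opposite strands. Their heat shock matches are the same bases, counted once for each gene. The short element TTGCATCA stood in Herpud1 and in 0.795% of all promoters. Stretches before the start are shown for members described below in striatum and as examples of the stress element and the heat shock units, with the matches in capitals. Hyou1 and Sdf2l1 held none of these motifs in the window and are shown as well. Other forms of the stress element were not searched, so a lack of any such element is not shown. After risperidone in striatum the difference of Hyou1 was about as large as that of Hspa5. That of Sdf2l1 was smaller than that of Hspa5, and neither Hyou1 nor Sdf2l1 was called. The sequences read 5′ to 3′ on the strand of the gene.
Hspa5 (chr3:38452866-38453015, plus strand): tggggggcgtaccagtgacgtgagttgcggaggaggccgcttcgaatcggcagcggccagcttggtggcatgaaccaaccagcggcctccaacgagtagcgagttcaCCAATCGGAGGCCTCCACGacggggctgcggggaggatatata
Xbp1 (chr14:84604473-84604622, plus strand): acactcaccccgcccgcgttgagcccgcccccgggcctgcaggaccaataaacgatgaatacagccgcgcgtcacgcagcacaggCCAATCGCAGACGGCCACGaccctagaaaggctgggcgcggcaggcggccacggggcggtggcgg
Hsp90b1 (chr7:23012334-23012483, minus strand): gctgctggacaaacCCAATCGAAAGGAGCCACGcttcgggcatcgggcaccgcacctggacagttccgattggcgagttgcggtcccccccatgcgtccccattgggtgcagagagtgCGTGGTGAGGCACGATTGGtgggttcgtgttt
Dnajc3 (chr15:102432517-102432566, plus strand): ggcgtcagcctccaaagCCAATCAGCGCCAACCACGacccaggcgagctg
Creld2 (chr7:121789224-121789273, plus strand): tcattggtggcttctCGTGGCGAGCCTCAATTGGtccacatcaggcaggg
Hspb1 (chr12:26432352-26432451, minus strand): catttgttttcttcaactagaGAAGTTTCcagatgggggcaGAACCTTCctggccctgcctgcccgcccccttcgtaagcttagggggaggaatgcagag
Hsph1 (chr12:10427248-10427357, plus strand): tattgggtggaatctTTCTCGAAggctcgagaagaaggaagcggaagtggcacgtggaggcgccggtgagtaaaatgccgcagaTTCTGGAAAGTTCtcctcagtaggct
Hyou1 (chr8:53602732-53602881, plus strand): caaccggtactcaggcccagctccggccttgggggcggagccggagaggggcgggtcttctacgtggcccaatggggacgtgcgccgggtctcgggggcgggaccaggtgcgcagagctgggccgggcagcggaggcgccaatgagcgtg
Sdf2l1 (chr11:97376728-97376877, plus strand): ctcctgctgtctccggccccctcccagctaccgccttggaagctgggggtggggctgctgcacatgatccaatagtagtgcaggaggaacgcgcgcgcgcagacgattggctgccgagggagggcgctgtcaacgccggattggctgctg
Hspa5 and Xbp1 each carry 1 stress element near the start, and Hsp90b1 carries 2, 1 in each orientation. In Creld2 the element runs in the opposite direction. Hspb1 carries 2 separate pairs of heat shock units, whereas Hsph1 carries 1 pair and, closer to the start, a run of 3 units. A match describes these letters and does not show that a factor binds there.

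Values are log2 intensities, and a difference is the mean of the treated minus that of the vehicle rats on this scale. A gene counted as called where the adjusted p was under 0.05 and the change was 1.2-fold or more. Region markers followed the labels: striatal neuron markers averaged 11.00 to 12.18 in the 15 striatum libraries and 7.03 to 8.59 elsewhere, and hippocampal markers 9.34 to 9.91 in hippocampus and 6.32 to 7.16 elsewhere. Of the 45 libraries, 8 were set apart as high in markers of a neighboring tissue. Choroid plexus and meninges markers averaged 8.91 in striatum vehicle rat 1, 8.64 in haloperidol rat 1 and 8.11 in risperidone rat 5, against 5.92 to 7.40 in the other striatum libraries, and 8.62 in hippocampus of risperidone rat 3 (others 6.30 to 7.65). Pyramidal neuron markers averaged 8.37 in striatum of risperidone rat 3 (others 6.22 to 7.63), and olfactory bulb markers 8.66, 8.15 and 7.21 in frontal cortex of risperidone rats 2 and 5 and haloperidol rat 5 (others 5.63 to 6.25). Frontal cortex of risperidone rat 1 is not among the 8, although its striatal neuron markers averaged 8.59 (other frontal cortex libraries 7.28 to 7.96). It was kept where the 8 libraries were left out. In bulk tissue, fewer cells of a type and less RNA per cell cannot be told apart.

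After 21 days of risperidone, Hspa5 and Hspb1 were called lower in striatum, and no member was called higher. These 2 of 35 members were called, beside 2.99% of all genes in either direction and 2.00% in the direction of a fall. Before adjustment, 12 members had a p under 0.05, all lower, which is 34.3% of the list. Of all genes 21.4% had such a p in either direction, and 1347 of these 2198 genes were lower. By class, 7 of 14 endoplasmic reticulum members, 4 of 12 cytosolic members, 1 of 4 transcription factors and 0 of 5 mitochondrial chaperones and heat shock factors had such a p.

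Hspa5 encodes BiP, the Hsp70 of the endoplasmic reticulum, which holds unfolded chains and the stress sensors of that compartment. In striatum it measured 11.58, 11.32, 11.20, 11.51 and 11.13 in vehicle rats 1 to 5, and 11.21, 10.92, 10.78, 10.98 and 11.16 in the risperidone rats. The haloperidol rats measured 11.45, 11.32, 11.00, 10.89 and 11.13. The 2 highest risperidone values reach into the low end of the vehicle range, and haloperidol spans both. Under risperidone Hspa5 fell by 0.34 in log2 units (standard error 0.08, limma adjusted p = 0.0119, n = 5 rats per group), to 0.791 of the vehicle level. With haloperidol the difference was -0.19, which was not called. The call was lost without vehicle rat 1, vehicle rat 4 or risperidone rat 3 (log2 -0.39 to -0.28 over the 10 rats left out in turn, adjusted p up to 0.0781, without risperidone rat 3). Without the 8 libraries named above the difference was -0.27 (adjusted p = 0.112). It was -0.33 (adjusted p = 0.00261) with the choroid plexus and meninges markers as a covariate and -0.27 (adjusted p = 0.128) with the pyramidal neuron markers.

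Hspb1 encodes Hsp27, a small heat shock protein that keeps damaged proteins soluble and acts on actin. Striatum levels were 7.31, 6.16, 6.04, 6.35 and 5.98 in vehicle rats, 6.46, 5.96, 5.88, 5.76 and 5.82 in haloperidol rats, and 6.0, 5.29, 5.60, 5.78 and 6.33 in risperidone rats. In each treatment the highest value came from the library with the most choroid plexus and meninges signal (vehicle rat 1, haloperidol rat 1 and risperidone rat 5), and the ranges overlap. Hspb1 fell by 0.57 after risperidone (standard error 0.17, adjusted p = 0.0418) and differed by -0.39 after haloperidol, which was not called. Without vehicle rat 1 the risperidone difference was -0.34 (adjusted p = 0.176), and the call was also lost without vehicle rats 2 or 4 or risperidone rats 2, 3 or 4. Without the 8 libraries it was -0.43 (adjusted p = 0.0499), with the choroid plexus and meninges markers as a covariate -0.55 (adjusted p = 0.00198) and with the pyramidal neuron markers -0.46 (adjusted p = 0.263).

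**Figure D1:**
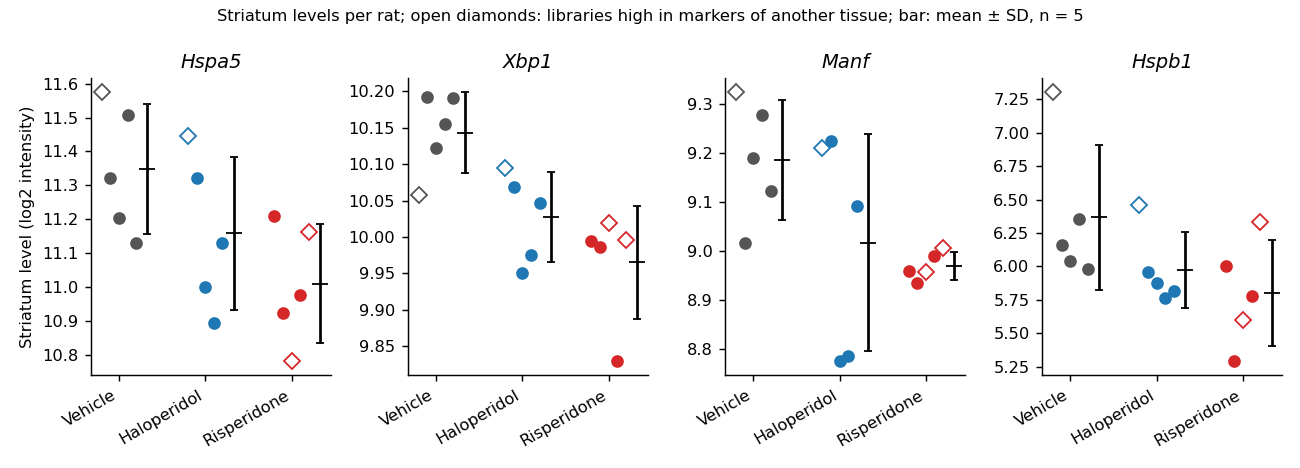
Log2 intensity of Hspa5, Xbp1, Manf and Hspb1 in striatum, 1 point per rat, by treatment. Open diamonds are the 4 striatum libraries high in choroid plexus or pyramidal neuron markers, and bars give the mean and SD of 5 rats. For Xbp1 and Manf the points of risperidone lie under those of vehicle, and the diamonds of vehicle rat 1, haloperidol rat 1 and risperidone rat 5 top their groups for Hspb1.

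In striatum 3 further members had risperidone rats that were all lower than every vehicle rat (Xbp1, Manf and Hyou1), where the ranges were apart for 3.54% of all genes. Xbp1, whose spliced form switches on folding and degradation genes, measured 10.06, 10.19, 10.12, 10.16 and 10.19 in vehicle rats and 9.99, 9.99, 10.02, 9.83 and 9.996 in risperidone rats. The gap between the groups was narrow, and the difference of -0.18 (standard error 0.05) had an adjusted p of 0.0354 at less than 1.2-fold. It was -0.23 (adjusted p = 0.0342) without the 8 libraries, and its adjusted p rose above 0.05 without vehicle rats 2, 3, 4 or 5 or risperidone rat 4 (up to 0.0951) and after quantile normalization (-0.14, adjusted p = 0.0990). Haloperidol rats ran from 9.95 to 10.09, across both groups.

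Manf, a secreted protein that protects cells under endoplasmic reticulum stress, measured 9.32, 9.02, 9.19, 9.28 and 9.12 in vehicle rats and 8.96, 8.94, 8.96, 8.99 and 9.01 in risperidone rats. The risperidone rats lay close together just under the lowest vehicle rat, and the haloperidol rats (8.78 to 9.22) overlapped both groups. Its difference of -0.22 (standard error 0.07) did not pass, with an adjusted p of 0.0748. Hsph1, an Hsp110 of the cytosol that recharges Hsp70, differed by -0.22 after risperidone (adjusted p = 0.04996, just under the threshold, at less than 1.2-fold) and by -0.22 after haloperidol (adjusted p = 0.130). All haloperidol rats (11.70 to 11.92) lay below all vehicle rats (11.98 to 12.09), whereas the risperidone rats ran from 11.41 to 12.06. Without risperidone rat 3, the lowest, the risperidone difference on this probe set was -0.13 (adjusted p = 0.307), and its adjusted p was also above 0.05 without any 1 of the 5 vehicle rats or risperidone rat 5.

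Further probe sets of 2 cytosolic members were called in the same comparison. Counting any probe set of a gene, 4 of 35 members fell (Hspa5, Hspb1, Hsp90ab1 and Hsph1), beside 3.20% of all genes that fell and 4.45% called in either direction. Hsp90ab1, the constitutive Hsp90 of the cytosol, measured 12.28, 12.25, 12.08, 12.42 and 12.18 on its dimmer probe set in vehicle rats and 12.04, 11.92, 11.96, 11.83 and 11.97 in risperidone rats. Every risperidone rat was lower than every vehicle rat there, with a fall of 0.30 (standard error 0.06, adjusted p = 0.00231). Its brighter probe set differed by -0.12 (adjusted p = 0.0887), so the size differs between the 2 measures. The dimmer Hsph1 probe set fell by 0.34 (standard error 0.09, adjusted p = 0.0283), with risperidone rat 3 at 9.84 and the other 4 between 10.37 and 10.72, against 10.71 to 10.90 in vehicle rats. Without risperidone rat 3 the Hsph1 difference was -0.19 (adjusted p = 0.195), and the call was lost without 5 of the 10 rats (vehicle rats 3, 4 and 5 and risperidone rats 3 and 5). With the 8 libraries left out it was -0.15 (adjusted p = 0.425). The Hsp90ab1 call was lost without vehicle rat 4 (-0.25, adjusted p = 0.0185, under 1.2-fold). It was also lost after quantile normalization and with the region fitted alone (limma adjusted p up to 0.107).

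A difference between the 2 chaperone classes was not shown. In striatum after risperidone the median difference was -0.16 over the 14 endoplasmic reticulum members, -0.08 over the 12 cytosolic members and -0.02 over all genes. With 1 rat left out these class medians ran from -0.20 to -0.11 and from -0.12 to -0.03. Both ranges come from the same fits, so they do not test a difference between the classes. Per rat, the endoplasmic reticulum mean exceeded the cytosolic mean by 0.22 ± 0.07 (SD, n = 5) in vehicle, 0.23 ± 0.13 in haloperidol and 0.18 ± 0.09 in risperidone rats. This gap was slightly smaller after risperidone, and it changed by less than the spread between rats. The same quantity was 0.20 ± 0.03 in vehicle and 0.27 ± 0.08 in risperidone rats in frontal cortex, and 0.14 ± 0.04 and 0.18 ± 0.05 in hippocampus. After haloperidol in striatum both classes had a median of -0.08, beside -0.02 over all genes. The remaining endoplasmic reticulum members with an unadjusted p under 0.05 after risperidone were Calr (-0.16), Creld2 (-0.18), Pdia3 (-0.16), Pdia6 (-0.14), Manf and Hyou1, and adjusted p ran from 0.0748 to 0.210 over the 6. Canx (0.05), Hsp90b1 (0.00) and Dnajb9 (0.13), the calnexin, GRP94 and an Hsp40 partner of BiP, did not lie below vehicle. Dnajc3 (-0.20), Sdf2l1 (-0.21), Pdia4 (-0.15) and Herpud1 (-0.04), a degradation factor, had an unadjusted p above 0.05. Among cytosolic members Dnaja1, an Hsp40, differed by -0.19 (adjusted p = 0.0842), and Stip1 and Hspa4 by -0.11 and -0.10. Cryab (-0.05), Dnajb1 (0.01), St13 (0.02), Hspa1a (0.03) and Bag3 (0.12) lay near vehicle. The heat shock factors Hsf1 (-0.10) and Hsf2 (0.03), the mitochondrial Hspa9 (-0.10), Hspe1 (-0.07) and Hspd1 (-0.00), and Atf4 (0.07), Atf6 (-0.00) and Ddit3 (-0.06) had no p under 0.05 before adjustment. With the 8 libraries left out the endoplasmic reticulum and cytosolic medians were -0.16 and -0.06.

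**Figure D2:**
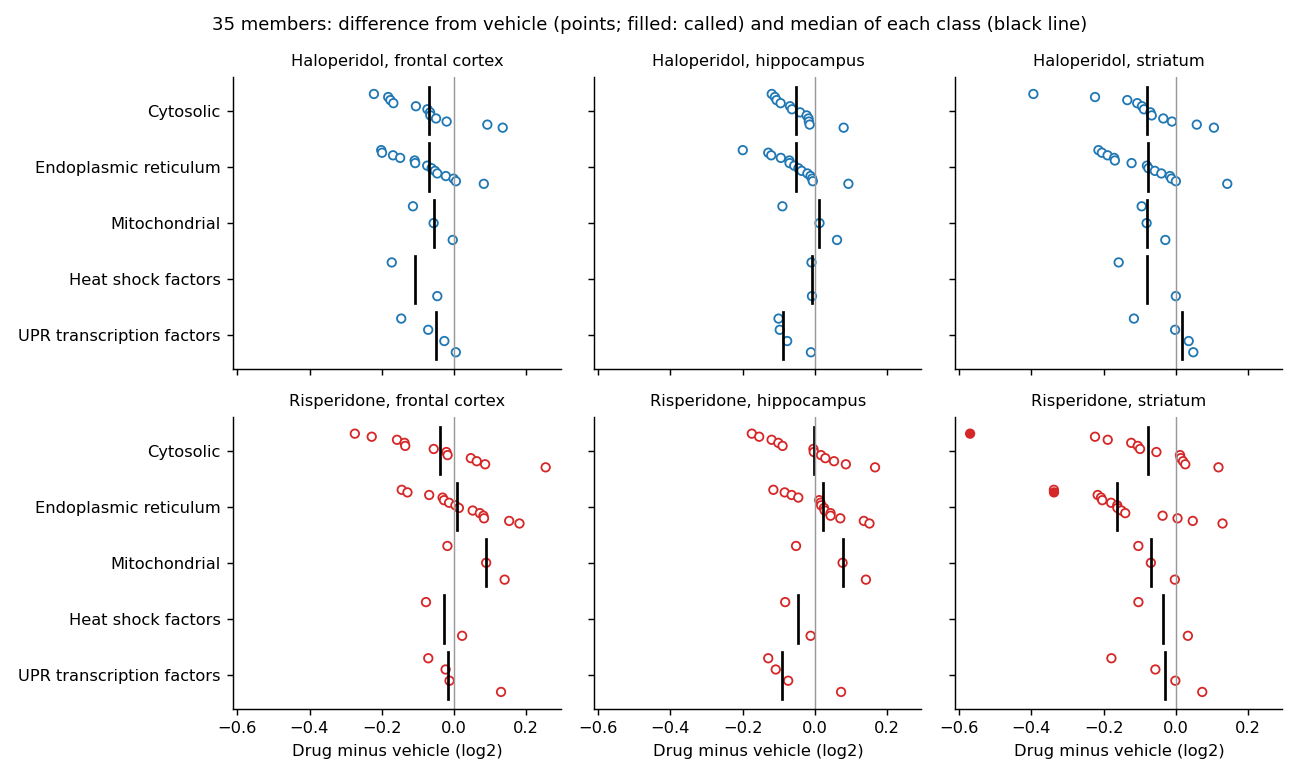
Log2 difference between drug and vehicle for the 35 members, by drug, region and class. Each point is 1 gene, filled where called, and the black line is the median of the class. After risperidone in striatum Hspb1 (-0.57) and Hspa5 (-0.34) are the filled points, and the endoplasmic reticulum median is -0.16.

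The spread of the endoplasmic reticulum members within each treatment moved with choroid plexus and meninges signal in striatum. Of 14 endoplasmic reticulum members, 13 had their highest vehicle value in vehicle rat 1, 10 their highest haloperidol value in haloperidol rat 1 and 10 their highest risperidone value in risperidone rat 5, the 3 libraries with the most signal of that tissue. For the 12 cytosolic members these counts were 4, 2 and 5. The mean level of the 14 members was 9.73 in vehicle rat 1 and 9.43 to 9.53 in the other vehicle rats, 9.66 in haloperidol rat 1 and 9.19 to 9.58 in the others, and 9.53 in risperidone rat 5 and 9.34 to 9.37 in the others. The marker means overlapped between treatments (5.92 to 8.91 in vehicle, 5.98 to 8.64 in haloperidol and 6.13 to 8.11 in risperidone rats, 7 of 7 markers measured), and Ttr, the main secreted protein of the choroid plexus, ran from 7.46 to 14.44, from 7.17 to 14.44 and from 8.74 to 14.20. In hippocampus the library with the most such signal, risperidone rat 3, held the highest value of only 1 of the 14 members, Herpud1 (8.86). Pyramidal neuron markers had a median difference of 0.45 and striatal neuron markers of -0.28 after risperidone in striatum, with 0 of 6 and 1 of 8 called. After haloperidol these medians were 0.40 and -0.17, with none called. The part of these markers in the falls was not tested beyond the values given above.

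**Figure D3:**
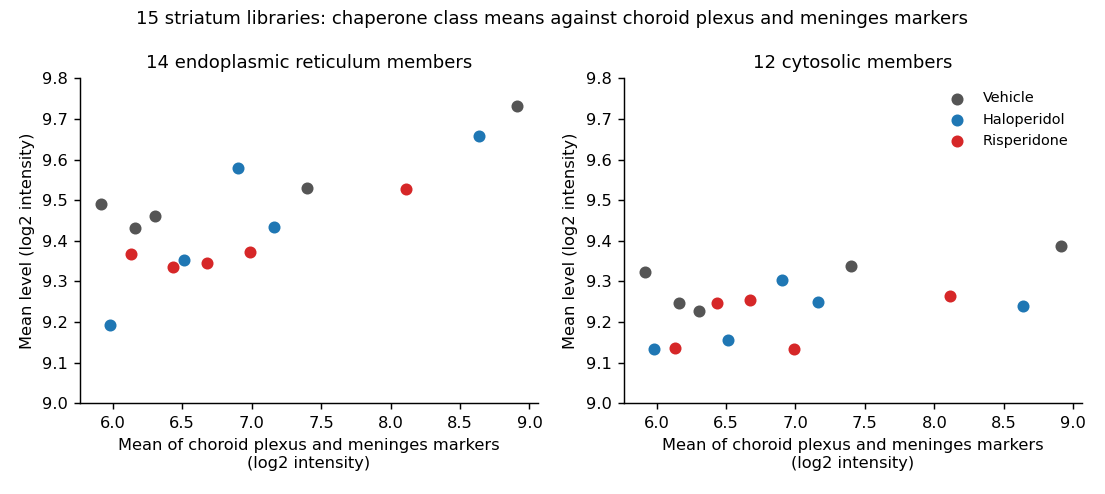
Mean log2 intensity of the 14 endoplasmic reticulum members (left) and the 12 cytosolic members (right) against the mean of 7 choroid plexus and meninges markers in the 15 striatum libraries, colored by treatment. The 3 libraries above 8 on the horizontal axis lie at 9.53 to 9.73 on the left and at 9.24 to 9.39 on the right.

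No member was called after haloperidol in any region. By limma 0 of 35 passed in frontal cortex (0.146% of all genes), 0 in hippocampus (0% of all genes) and 0 in striatum (0.263% of all genes). Before adjustment 6, 1 and 10 of 35 members had a p under 0.05, all lower than vehicle. Beside them stood 12.6%, 3.45% and 14.9% of all genes in either direction (814 of 1296, 169 of 354 and 995 of 1524 lower). In striatum the members with such a p were led by Hspb1 (-0.39, adjusted p = 0.261), Hsph1 (-0.22), Hspa5 (-0.19), Creld2 (-0.17) and Manf (-0.17), and the differences of the 35 members ran from -0.39 to 0.14. Most members lay slightly below vehicle: of 35, 30 in frontal cortex, 31 in hippocampus, and 29 in the striatum comparison, with medians of -0.07, -0.05 and -0.08, beside -0.03, 0.00 and -0.02 over all genes, of which 64.3%, 50.2% and 57.8% lay below vehicle. The cytosolic and endoplasmic reticulum medians were both -0.07, -0.05 and -0.08. With 1 rat left out, the striatum medians ran from -0.11 to -0.06 for cytosolic and from -0.16 to -0.01 for endoplasmic reticulum members, and those in hippocampus from -0.07 to -0.04 and from -0.08 to -0.03. Ranges were apart for Dnajb5 and Xbp1 in frontal cortex (3.67% of all genes), Hspa4 and Hsph1 in hippocampus (1.16%) and Hsph1 in striatum (3.48%), all below vehicle, and none had an adjusted p under 0.05. For Hsph1 in hippocampus the highest haloperidol rat (11.84) lay less than 0.01 under the lowest vehicle rat.

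Risperidone left the members in frontal cortex and hippocampus without a call. In frontal cortex 0 of 35 were called beside 3.30% of all genes, and in hippocampus 0 beside 0.117%. Before adjustment limma gave 3 lower and 3 higher in each of these regions, 17.1% of the members beside 23.9% of all genes in frontal cortex and 16.3% in hippocampus. In frontal cortex they were Hspa4 (-0.13), Dnajb1 (-0.16) and Dnajb5 (-0.23), and Bag3 (0.25), Hspd1 (0.09) and Hspe1 (0.14). In hippocampus they were Hsph1 (-0.15), Xbp1 (-0.11) and Atf6 (-0.13), and St13, a co-chaperone of Hsp70 (0.17), Dnajb9 (0.15) and Hspa9 (0.14). The medians over the members were -0.01 and 0.01, beside 0.03 over all genes in both regions.

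Dnajb5, a cytosolic Hsp40 co-chaperone, lay below vehicle in frontal cortex after both drugs. It measured 9.82, 9.72, 9.96, 9.78 and 9.77 in vehicle rats, 9.70, 9.64, 9.63, 9.62 and 9.63 in haloperidol rats and 9.63, 9.71, 9.49, 9.40 and 9.68 in risperidone rats. All rats of both drug groups lay below all vehicle rats, which both comparisons share. In risperidone Dnajb5 was the only 1 of 35 members with ranges apart, beside 6.05% of all genes. The risperidone difference was -0.23 (standard error 0.06, adjusted p = 0.0287), under 1.2-fold, and the haloperidol difference -0.17 (adjusted p = 0.231). With the 8 libraries left out the risperidone difference was -0.31 (adjusted p = 0.00423), past both thresholds, and 3 of 3 tested olfactory bulb markers rose in that comparison on all libraries (median 0.91). Without vehicle rat 3 the Dnajb5 difference was -0.19 (adjusted p = 0.0778), and the adjusted p was also above 0.05 without vehicle rat 4 or risperidone rats 3 or 4. In striatum the levels of Dnajb5 overlapped between treatments, with differences of 0.06 after haloperidol and 0.01 after risperidone.

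In hippocampus after risperidone, ranges were apart for 3 members (4.58% of all genes). Hsph1 (11.63 to 11.81 against 11.84 to 11.95 in vehicle rats) and Atf6 (9.18 to 9.35 against 9.35 to 9.46), the membrane-bound sensor that is cut to a transcription factor, lay below, the latter by less than 0.01 at the nearest rats, with differences of -0.15 and -0.13. Hspa9, the Hsp70 of mitochondria, lay above (10.64 to 10.81 against 10.52 to 10.61) by 0.14 on its brightest probe set. The 3 had adjusted p of 0.255, 0.167 and 0.207, and Hspa9 was at -0.05 as the median over its probe sets. Hsph1 thus lay below vehicle without overlap in hippocampus with both drugs and in striatum with haloperidol, all against the same vehicle rats.

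The drugs were also set against each other, which uses no vehicle rats. By limma 0 of 35 members were called in frontal cortex (0.878% of all genes), 0 in hippocampus (0% of all genes) and 0 in striatum (0% of all genes), with 6, 1 and 0 members at an unadjusted p under 0.05, all higher with risperidone. Of all genes 23.5%, 5.56% and 3.77% had such a p, and in frontal cortex 2042 of these 2409 genes were higher with risperidone too. Hspe1, the mitochondrial Hsp10, was higher with risperidone than with haloperidol in frontal cortex by 0.20 (standard error 0.05, adjusted p = 0.0434), under 1.2-fold. It measured 11.33, 11.24, 11.06, 11.14 and 11.17 in haloperidol rats and 11.31, 11.54, 11.50, 11.37 and 11.20 in risperidone rats. Those ranges overlap, and the difference had an adjusted p of 0.109 without the 8 libraries and of up to 0.187 with 1 rat left out (without haloperidol rats 2, 3, 4 or 5 or risperidone rats 2 or 3). In striatum Hspa5 differed by -0.15 (95% interval of the fit from -0.31 to 0.02) and Hspb1 by -0.18 (-0.52 to 0.17) between risperidone and haloperidol, so a fall with risperidone alone is not shown.

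No member's drug response was shown to differ between regions. For haloperidol 0 of 35 were called between striatum and frontal cortex (0.0293% of all genes), between striatum and hippocampus (0%) and between hippocampus and frontal cortex (0%). For risperidone 0 were called in these 3 contrasts, beside 2.98%, 1.63% and 1.25% of all genes. At an unadjusted p under 0.05 limma gave 2, 1 and 1 members for haloperidol (6.91%, 7.36% and 7.84% of all genes), and 8, 8 and 6 for risperidone (23.5%, 19.4% and 15.8% of all genes). The risperidone counts are 22.9%, 22.9% and 17.1% of the members, close to those shares. The risperidone response of Hspa5 in striatum differed by -0.19 from that in frontal cortex (adjusted p = 0.265) and by -0.25 from that in hippocampus (adjusted p = 0.165). For Hspb1 these values were -0.30 (adjusted p = 0.436) and -0.40 (adjusted p = 0.302). Without risperidone rat 5, which carried olfactory bulb signal in frontal cortex and choroid plexus signal in striatum, 3 members (Dnajb5, Pdia4 and Hspe1) were called between striatum and frontal cortex.

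Hyou1 set the same 2 rats apart in all 3 regions. It encodes the Hsp110 of the endoplasmic reticulum, a nucleotide exchange factor of BiP. Haloperidol rat 4 measured 7.40 in frontal cortex, 7.84 in hippocampus and 7.60 in striatum, and risperidone rat 1 measured 7.40, 7.85 and 7.44. The other 13 rats ran from 7.83 to 8.26, from 8.42 to 8.66 and from 7.92 to 8.43. Both rats were lowest of all 15 in each region, apart from the others without overlap. On the dimmer probe set the same 2 rats measured 6.21, 6.47 and 6.10, and 5.67, 6.52 and 6.26, and only in hippocampus were both below the other 13 (6.68 to 7.08). The correlation between regions of the same rat, after the group means were removed, was 0.90 for Hyou1, which placed it at percentile 99.6 of all genes. Hsf1 followed at 0.76 (percentile 98.3) and Dnaja1 at 0.61, and these are descriptions over 15 rats. In striatum the risperidone difference of Hyou1 was -0.34 (standard error 0.14, adjusted p = 0.144), with risperidone rats at 7.44, 8.13, 7.92, 8.25 and 8.18 and vehicle rats at 8.27 to 8.43. Without risperidone rat 1 it was -0.20 (adjusted p = 0.285).

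**Figure D4:**
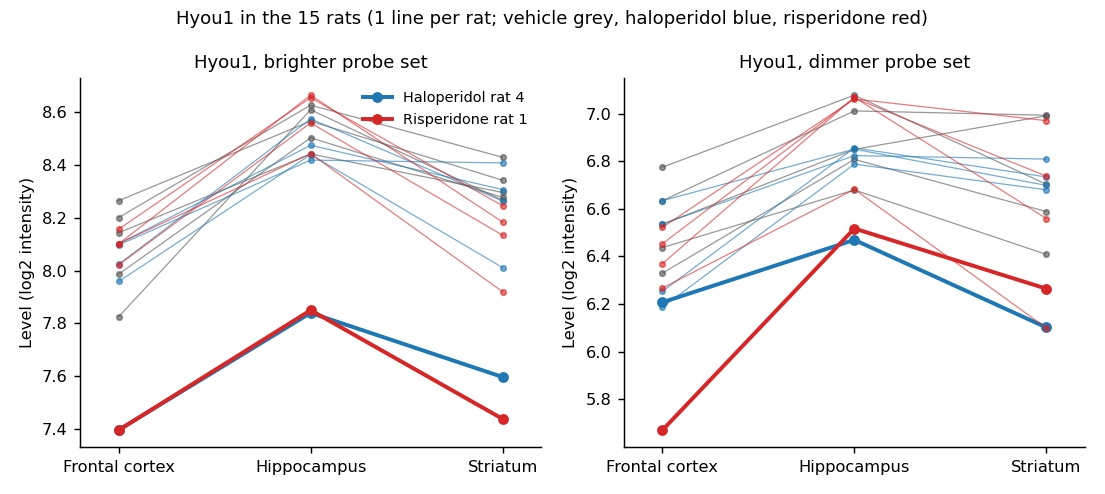
Log2 intensity of Hyou1 in 3 regions, 1 line per rat, for the brighter (left) and dimmer (right) probe set. Thick lines are haloperidol rat 4 and risperidone rat 1, which lie below the 13 other rats in every region on the left, at 7.40 to 7.85.

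Members also differed by region in vehicle rats, and how many depended on scaling. Arrays had a median intensity of 89.7 to 93.0 in frontal cortex, 106 to 110.0 in hippocampus and 87.8 to 91.7 in striatum, and the median of all genes lay 0.25 higher in hippocampus than in frontal cortex and 0.30 lower in striatum than in hippocampus on the deposited log2 scale (0.01 and 0.02 after quantile normalization of all arrays together). On the deposited scale 24 members were higher and 0 lower in hippocampus than in frontal cortex (52.8% of all genes called), 0 higher and 22 lower in striatum than in hippocampus (62.0%), and 6 higher and 11 lower in striatum than in frontal cortex (44.1%). After quantile normalization the counts were 7 and 3 (28.8% of all genes called), 5 and 10 (44.1%), and 10 and 5 (43.7%), so the members were called about as often as other genes. Under all of the deposited, quantile and median-centered scales 6, 10 and 11 of 35 members were called in these comparisons, beside 19.0%, 29.3% and 38.5% of all genes. of all genes. Values below are on the deposited scale for those.

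Bag3, a co-chaperone of Hsp70 in selective autophagy, differed most between hippocampus and frontal cortex. In frontal cortex of vehicle rats 1 to 5 it measured 5.98, 6.13, 5.71, 6.08 and 6.11. The hippocampus of these rats measured 7.43, 7.81, 7.61, 7.67 and 7.47, and the striatum 6.58, 6.59, 6.55, 6.54 and 6.55. The regions did not overlap. The difference was 1.59 between hippocampus and frontal cortex (standard error 0.08, adjusted p = 2.57e-19), which is 1.35 above the median of all genes, and 0.56 between striatum and frontal cortex. Hspa1a, the stress-inducible Hsp70, was 0.85 higher in hippocampus than in frontal cortex with standard error 0.08 and adjusted p = 1.85e-11 (6.54 to 6.92 against 5.75 to 6.31), on a probe set that may also bind transcripts of a near-identical copy. Hsf2, a heat shock factor active in development, was 0.64 higher (adjusted p = 2.12e-13), Cryab 0.69 and Calr, the calcium-binding lectin chaperone, 0.58 higher in the same comparison. After quantile normalization the differences were 1.31 for Bag3, 0.58 for Hspa1a, 0.41 for Hsf2, 0.44 for Cryab and 0.39 for Calr.

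Atf4 and Ddit3, transcription factors of the unfolded protein response, were lowest in striatum. Ddit3 encodes CHOP, which promotes cell death under prolonged stress, and it measured 7.83 to 8.16 in frontal cortex, 8.77 to 8.95 in hippocampus and 7.49 to 7.77 in striatum, and Atf4, the factor induced when translation is held back, 10.92 to 11.19, 10.85 to 11.03 and 9.86 to 10.13. Striatum lay below both other regions without overlap for each. Atf4 was lower in striatum than in frontal cortex, with a difference of -1.05 (standard error 0.06, adjusted p = 2.44e-18; -0.91 after quantile normalization). Ddit3 was lower in striatum than in hippocampus, with a difference of -1.23 (standard error 0.07, adjusted p = 2.81e-19; -0.91 after quantile normalization), and was 0.84 higher in hippocampus than in frontal cortex. Between striatum and hippocampus the differences were -0.88 for Atf4, -0.69 for Xbp1 and -0.60 for Atf6, also called under the 3 scales. Of the chaperones, Bag3 (-1.03), Dnajb5 (-0.99) and Hspa1a (-0.80) had the largest differences in that comparison, again called under the 3 scales.

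Among chaperones, members of both compartments ran in both directions between striatum and frontal cortex. Cryab, the small heat shock protein alpha-B crystallin that is abundant in oligodendrocytes, was 1.01 higher in striatum (9.52 to 10.01 against 8.34 to 8.98). In the same vehicle rats the oligodendrocyte markers had a median of 12.05 in striatum and 11.37 in frontal cortex. A link between these markers and Cryab was not tested. Hsph1 was 0.61 higher (adjusted p = 1.52e-11), Sdf2l1 and Creld2, folding factors of the endoplasmic reticulum, were 0.52 and 0.37 higher, and Dnajc3, an endoplasmic reticulum Hsp40, was 0.29 higher. The Hsp40 co-chaperones Dnajb1 (-0.75, adjusted p = 1.21e-16) and Dnajb5 (-0.66, adjusted p = 1.21e-13) were lower in striatum, as were Pdia6, a disulfide isomerase (-0.46), and Ddit3 (-0.39). Hspa5 differed by 0.01 (standard error 0.07) between these regions on the deposited scale and by 0.13 after quantile normalization, and was not called.

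**Figure D5:**
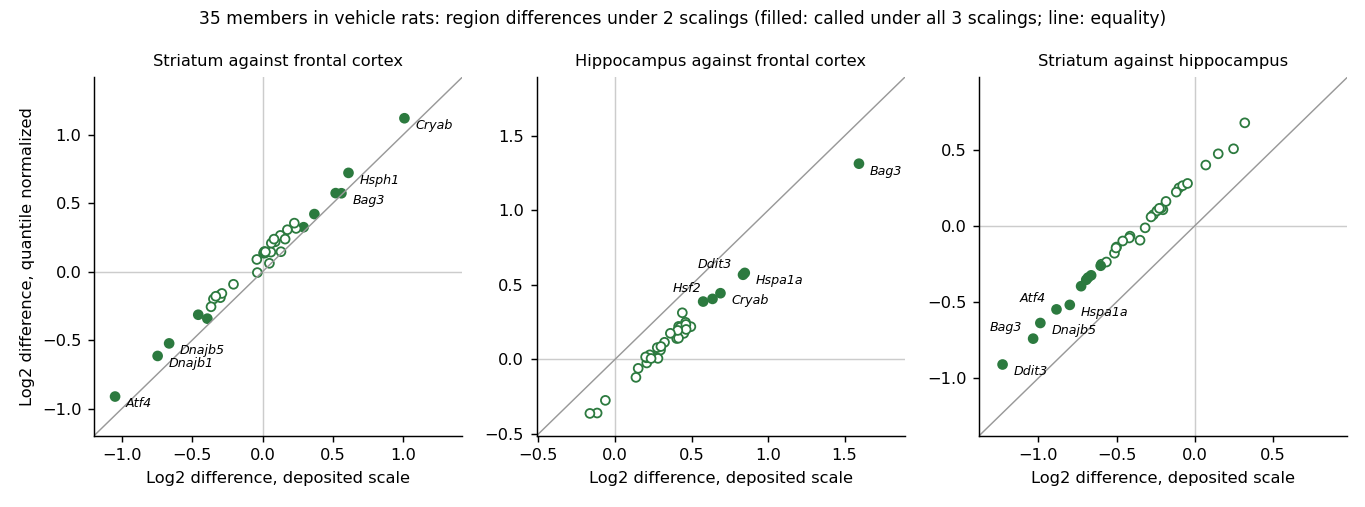
Log2 differences between regions in vehicle rats for the 35 members, on the deposited scale (horizontal) and after quantile normalization over all arrays (vertical). Filled points were called under all 3 scales, and the line marks equal values. Points in the 2 comparisons with hippocampus lie off the line by about the median shift of all genes, and the largest differences, such as Bag3 (1.59) and Ddit3 (-1.23), have the same sign on both.

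From a wider list of chaperones, co-chaperones, folding factors and stress response genes, 101 were measured beside the members. In striatum after risperidone 0 of 101 rose and 3 fell (Cebpb, Dnajb14 and Fkbp5), which is 2.97% of the list beside the 2.99% of all genes called and the 2.00% that fell, and in the other 5 comparisons of a drug with vehicle limma called 0. Cebpb, a transcription factor that acts with Atf4 and Ddit3, measured 6.40, 6.28, 6.34, 6.27 and 6.22 in vehicle rats and 5.70, 5.65, 5.48, 5.47 and 5.95 in risperidone rats. The haloperidol rats measured 6.22, 5.98, 5.23, 5.70 and 6.06. Cebpb was called neither between haloperidol and vehicle nor between the drugs in striatum, so a fall with risperidone alone is not shown. No risperidone rat reached the lowest vehicle rat, with a fall of 0.65 (standard error 0.13, adjusted p = 0.00127) that differed from the frontal cortex response by -0.72 (adjusted p = 0.0108) and from the hippocampus response by -0.71 (adjusted p = 0.0150). Without risperidone rat 3 the first of these was -0.61 (adjusted p = 0.0540). The call in striatum was lost with the region fitted alone (limma adjusted p = 0.0611). The difference from the hippocampus response was not called with the pyramidal neuron markers as a covariate. Of the 5 risperidone values, 4 lie below the filter value of 5.88, where signal limits the measurement, and on the scale of log2 of intensity plus 16 the difference was -0.52.

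Dnajb14, a membrane-anchored Hsp40, fell by 0.38 (standard error 0.07, adjusted p = 0.00101), from 8.20 to 8.49 in vehicle rats to 7.79 to 8.18 in risperidone rats. It was at -0.11 (adjusted p = 0.370) as the median over its probe sets, and its call was also lost with the region fitted alone. Fkbp5, an Hsp90 co-chaperone of the glucocorticoid receptor, fell by 0.36 (standard error 0.11, adjusted p = 0.0373), from 8.60 to 8.91 to 7.93 to 8.60, and was at -0.23 (adjusted p = 0.342) without the 8 libraries and -0.24 (adjusted p = 0.2004) without risperidone rat 3. Its call was also lost without vehicle rats 2, 3, 4 or 5 or risperidone rat 5. Of 14 other settings, 6 lost it, among them quantile normalization and the median over probe sets (limma adjusted p up to 0.413). The TRiC and prefoldin subunits (0 of 12), other mitochondrial chaperones and proteases (0 of 6), other endoplasmic reticulum folding factors (0 of 22) and degradation factors (0 of 13) held no call there.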

How the data were processed

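The authors deposited linear intensities of 31042 probe sets for 45 Affymetrix rat arrays, summarized by RMA in R 2.7.2 per the labels, and 57 control probe sets were left out here. Values were taken to log2, and 18625 probe sets above the 40th percentile of mean intensity (log2 5.88) were tested. Of these, 14129 name 1 gene, 306 several and 4190 none. All 9 groups were fitted together in limma 3.58.1 (R 4.3.3, statmod 1.5.0) taking the rat as a random effect (correlation 0.226), and p-values were adjusted by Benjamini-Hochberg over all tested probe sets. A call needed an adjusted p under 0.05 and a 1.2-fold change. The label number identifies a rat: deviations correlated between regions of a rat (median 0.35, above 0.1 in 44 of 45 pairs) and not between rats of equal number under different treatments (median -0.02).

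The members, lists and tests were chosen with earlier results of these data known. Members called in a drug comparison, and the 5 largest differences each way between regions, were named with their values. The scripts were tested on simulated data. The alternatives were other filters, scalings, blocks, weights and probe set rules and each rat left out, and, chosen after seeing the data, 8 libraries left out and 2 marker covariates. Figures used matplotlib 3.10.9. The number of arrays limits the precision.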

Additional observations from a re-analysis of the deposited data

Results flagged for a closer look

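In 23 of the 315 groups of 5 rats checked, 1 rat lay far from the other 4 for its group's range. Chance places about 5% of groups there. Striatum vehicle rat 1, high in choroid plexus markers, was such a rat for Hspb1 (7.31), Canx (11.70), Pdia6 (10.68), Herpud1 (8.78) and Sdf2l1 (8.64), each the highest of its group. Haloperidol rat 1 was the highest for Hspb1 (6.46) and risperidone rat 5 for Hspd1 (11.63). Hyou1 was low in haloperidol rat 4 in frontal cortex (7.40) and hippocampus (7.84) and in risperidone rat 1 in the same regions (7.40 and 7.85).

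The other striatum values were Hsf2 in haloperidol rat 3 (9.19), Xbp1 in risperidone rat 4 (9.83) and Atf6 in risperidone rat 2 (8.65). In hippocampus they were Herpud1 in risperidone rat 3 (8.86) and vehicle rat 5 (8.39), Dnajb9 in vehicle rat 1 (9.44) and Creld2 in vehicle rat 4 (8.29). In frontal cortex they were Hsph1 in risperidone rat 1 (11.57), Dnaja1 in vehicle rat 2 (11.29), Dnajb9 in haloperidol rat 4 (9.19), Pdia6 in risperidone rat 2 (10.94) and Sdf2l1 in risperidone rat 5 (7.60).

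The response of Cebpb to risperidone differed between regions by the interaction term in limma, by -0.72 between striatum and frontal cortex and by -0.71 between striatum and hippocampus. With the rat not modelled, the adjusted p of these differences were 0.0574 and 0.0714.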

How the results depend on the processing

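Of 1625 values recomputed under 15 other settings and with each rat left out, 1554 stayed the same by the rule for their kind. Differences of single genes kept their direction and side of the threshold, and counts stayed within 1.5 times. Class medians moved by less than the SD between vehicle rats, and some changed sign within that rule. The cytosolic median in hippocampus after risperidone, for example, ran from -0.03 to 0.02 with 1 rat left out. The count of 2 members called after risperidone in striatum was 4 over any probe set (Hspa5, Hspb1, Hsp90ab1 and Hsph1), 1 with a 60th percentile filter (Hspa5), 1 without the 8 libraries (Hspb1), and 0 with the region fitted alone, with array weights and with the pyramidal neuron covariate. Leaving out 1 rat gave 0 to 2, with 0 without vehicle rats 1 or 4 or risperidone rat 3. In frontal cortex the risperidone count of 0 became 1 (Dnajb5) with array weights and without the 8 libraries. For the difference in risperidone response between striatum and frontal cortex, 0 became 1 over any probe set (Hsp90ab1) and without the 8 libraries (Dnajb5), and 0 to 3 with 1 rat left out. Between hippocampus and frontal cortex it became 1 with array weights (Bag3). Between hippocampus and frontal cortex in vehicle rats the count of 24 was 10 after quantile normalization, 7 of them among the 24, and 9 after median centering. Hspb1, Dnajb1 and Atf4 were called lower only under these 2 scalings. Hspa9 in hippocampus after risperidone turned from 0.14 to -0.054 with the median over its probe sets. The cause of these shifts was not tested.

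With the label number as a replicate block, 2 members were called after risperidone in striatum, as without it, and no count of calls changed. With the rat not modelled the count was also 2. Hspb1, at a mean of 6.05, lies close to the filter value of 5.88, where signal limits the measurement.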
